A study of Mus musculus with 8 samples.

Results

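The genes described here are 38 collagens, extracellular matrix genes and myofibroblast genes, chosen by name as a list of fibrillar and basement membrane collagens, matrix glycoproteins, proteoglycans, crosslinking enzymes and mesenchymal genes. Of these, 35 were found by gene symbol on the array, each on 1 probe, among 22206 probes in all. Fbn1, Loxl2 and Pdgfra were not found on a named probe and were not analysed here. RNA from whole kidneys of NZBWF1 mice was measured with Clariom S Mouse arrays, which use 1 colour, in 4 mice at 28 weeks of age, labelled replicates 6 to 9, and in 4 mice at 8 weeks, labelled replicates 1 to 4. NZBWF1 is the hybrid of New Zealand Black and New Zealand White mice, which develops an autoimmune disease like human lupus, with nephritis, as it ages. All mice carry the same hybrid genotype, and the labels name no treatment and no allele beside it. No strain without the disease was among the samples analysed here, so growth, ageing and disease cannot be told apart in the comparison of ages. Whole kidney RNA mixes all cell types, so more cells of a type and more RNA per cell cannot be told apart either.

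The labelled tissue was checked against defining kidney genes. Umod, the uromodulin gene of the thick ascending limb, lay between 18.43 and 18.72 at 28 weeks and between 18.31 and 18.52 at 8 weeks on the log2 scale of the array. Lrp2, which encodes the proximal tubule receptor megalin, lay between 17.74 and 18.25 at 28 weeks and between 17.98 and 18.23 at 8 weeks. Both were near the top of the range of 2.31 to 19.89 over all probes, so kidney markers were present at both ages.

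The kidney matrix has a basement membrane part and an interstitial part. Basement membranes are sheets of type IV collagen and laminin under epithelia and endothelia. The α1 and α2 chains of type IV collagen are found in basement membranes throughout the body, whereas the α3, α4 and α5 chains form the mature network of the glomerular basement membrane, made by podocytes, and loss of that network causes Alport syndrome. The interstitium between the tubules holds fibrillar collagens of types I, III and V, the glycoproteins that bind them, and small proteoglycans that space the fibrils. In injured kidneys, pericytes and fibroblasts can turn into contractile myofibroblasts, which express smooth muscle actin and deposit fibrillar collagen. Smooth muscle cells of arteries express the same contractile genes, so these genes are not specific to myofibroblasts.

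The type IV collagen genes lie in pairs that run away from each other from neighbouring starts, and their promoters are shown because the values below set the members of each pair side by side. The sequences are windows of 250 bases before to 50 bases after each gene's start, from RefSeq on build GRCm38.p6, and 24 of the 38 genes matched such a window. The windows of Col4a1 and Col4a2 overlap on opposite strands by 78 bases, which are in capitals in both, and the starts lie 21 bases apart.
Col4a1 promoter, chr8:11312777-11313076, minus strand: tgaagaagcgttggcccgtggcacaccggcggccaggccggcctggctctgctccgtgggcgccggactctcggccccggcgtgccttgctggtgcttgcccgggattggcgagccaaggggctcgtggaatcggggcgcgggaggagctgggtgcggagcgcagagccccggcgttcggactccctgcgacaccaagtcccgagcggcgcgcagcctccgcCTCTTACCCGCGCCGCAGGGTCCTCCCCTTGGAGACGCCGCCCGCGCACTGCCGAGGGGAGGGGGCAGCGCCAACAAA
Col4a2 promoter, chr8:11312555-11312854, plus strand: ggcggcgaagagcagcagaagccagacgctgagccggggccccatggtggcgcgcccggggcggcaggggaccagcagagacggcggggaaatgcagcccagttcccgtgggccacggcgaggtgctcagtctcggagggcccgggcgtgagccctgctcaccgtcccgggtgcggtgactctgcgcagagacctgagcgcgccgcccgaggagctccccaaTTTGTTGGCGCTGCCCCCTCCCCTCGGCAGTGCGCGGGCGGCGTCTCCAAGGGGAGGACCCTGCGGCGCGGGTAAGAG

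Col4a5 and Col4a6 are paired in the same way on chromosome X, but their starts lie 1343 bases apart and the windows share no base. Capitals mark a CCAAT box (CCAAT) and a GC box (GGGCGG) in Col4a5 and a GC box on the opposite strand in Col4a6.
Col4a5 promoter, chrX:141475169-141475468, plus strand: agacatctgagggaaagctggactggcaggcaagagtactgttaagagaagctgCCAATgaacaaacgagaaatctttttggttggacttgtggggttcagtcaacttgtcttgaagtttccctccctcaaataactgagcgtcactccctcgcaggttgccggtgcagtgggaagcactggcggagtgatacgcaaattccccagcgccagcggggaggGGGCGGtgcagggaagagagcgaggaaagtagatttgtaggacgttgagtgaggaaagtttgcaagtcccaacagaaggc
Col4a6 promoter, chrX:141474027-141474326, minus strand: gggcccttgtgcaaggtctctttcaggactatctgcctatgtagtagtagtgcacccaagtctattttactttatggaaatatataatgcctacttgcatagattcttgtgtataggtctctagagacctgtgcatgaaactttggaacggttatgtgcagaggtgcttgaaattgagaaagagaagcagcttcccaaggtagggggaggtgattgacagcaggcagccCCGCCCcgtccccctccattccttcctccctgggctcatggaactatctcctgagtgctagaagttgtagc

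Col4a3 and Col4a4 overlap at their starts in the annotation. In the Col4a4 window the 179 bases in capitals lie inside the annotated span of Col4a3. None of the motifs searched was found in this window.
Col4a4 promoter, chr1:82586800-82587099, minus strand: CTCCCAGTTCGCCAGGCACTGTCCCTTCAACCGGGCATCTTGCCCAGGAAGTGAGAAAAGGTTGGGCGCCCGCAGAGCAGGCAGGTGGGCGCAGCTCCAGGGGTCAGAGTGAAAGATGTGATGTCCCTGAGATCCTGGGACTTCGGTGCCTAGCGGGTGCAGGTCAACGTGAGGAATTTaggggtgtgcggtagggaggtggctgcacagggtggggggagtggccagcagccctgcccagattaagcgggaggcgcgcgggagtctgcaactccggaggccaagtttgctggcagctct

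The promoters of Tnc and Tgfbi are shown because these genes had the largest differences between the ages among the 35 genes. Capitals mark a GC box and a TATA box (TATAAA) in Tnc, and a GC box on each strand in Tgfbi.
Tnc promoter, chr4:64046966-64047265, minus strand: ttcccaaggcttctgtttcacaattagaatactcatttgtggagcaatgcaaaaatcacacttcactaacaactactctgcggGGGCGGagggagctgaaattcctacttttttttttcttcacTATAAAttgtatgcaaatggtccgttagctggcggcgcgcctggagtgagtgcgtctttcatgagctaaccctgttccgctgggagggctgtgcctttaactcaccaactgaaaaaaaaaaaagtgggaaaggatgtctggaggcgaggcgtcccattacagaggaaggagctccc
Tgfbi promoter, chr13:56609336-56609635, plus strand: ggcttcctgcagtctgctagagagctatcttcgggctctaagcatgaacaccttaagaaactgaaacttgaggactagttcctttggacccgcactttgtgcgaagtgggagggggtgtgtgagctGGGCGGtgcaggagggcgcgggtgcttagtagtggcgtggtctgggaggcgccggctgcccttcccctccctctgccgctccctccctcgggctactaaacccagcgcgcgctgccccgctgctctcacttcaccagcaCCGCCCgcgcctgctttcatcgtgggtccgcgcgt

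Motifs were searched by their letters on both strands, and the pentamer CCAAT, the hexamers TATAAA and GGGCGG and the AP-1 site TGANTCA do not overlap in the windows shown. GGGCGG was present in 16 of the 28 windows of these genes (57.1%), against 35.7% of all 32851 windows. CCAAT was present in 8 of the 28 windows (28.6%), against 37.4% of all windows. TATAAA was present in 4 windows (14.3%), those of Col3a1, Postn and Tnc, against 13.6% of all windows. TGANTCA was present in 1 window, that of Col6a1, against 7.81% of all windows. A match of letters is a description and not a binding site.

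Across all probes, 215 of 22206 (0.968%) passed the test between the ages, in which limma p-values were adjusted by the Benjamini-Hochberg method over the whole array and called at 0.05. Of these, 99 were higher and 116 lower at 28 weeks. Array medians lay between 5.98 and 6.14, and precision is limited by how few arrays there are. A pair of arrays lay apart from their groups, and values without them are given beside those of the 35 genes whose call changes when they are left out. On the first principal component, which held 39.4% of the variance, 28-week replicate 7 scored -12.9 while the other 28-week arrays scored between 31.8 and 59.9, and the 8-week arrays between -39.5 and -7.66. On the second component 8-week replicate 1 scored 65.1, and the other 7 arrays between -27.9 and 15.3. Replicate 7 was the lowest of the 28-week arrays for 29 of the 35 matrix genes (82.9%), against 24.4% of all probes. Replicate 1 was the highest of the 8-week arrays for 20 of the 35 (57.1%), against 32.4% of all probes.

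Of the 35 matrix genes, 1 passed the test with all 8 arrays: Col4a5, which fell. None passed in the higher direction, where 0.446% of all probes passed. In the lower direction 0.522% of all probes passed, a share that amounts to less than 1 gene in 35, so a count of 1 says nothing about the list. At an unadjusted p under 0.05, 5 genes were higher and 2 lower at 28 weeks, and the corresponding shares of all probes were 8.36% and 6.63%. The log2 difference, 28 weeks minus 8 weeks, was positive for 24 of the 35 genes (68.6%), against 48.4% of all probes. Its median was 0.27 over the 35 genes and -0.01 over all probes. A difference of at least 2-fold was found for 5 genes in the higher direction (14.3%, against 2.3% of all probes) and for 1 in the lower direction (0.865% of all probes).

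28-week replicate 7 and 8-week replicate 1 were singled out from these same values. Leaving them out raises the differences of genes in which replicate 7 is lowest or replicate 1 highest. The shares and adjusted p-values below that leave them out, also for genes outside the 35, therefore describe those fits. They test neither the list nor a single gene. Without 28-week replicate 7, 7 of the 35 genes passed. Col3a1, Col15a1, Tnc, Tgfbi, Bgn and Tagln were higher and Col4a5 was lower. The 6 higher genes are 17.1% of the 35, against 3.63% of all probes in that fit, and the lower one stands against 1.95%. With each array left out in turn, adjusted p in limma ranged up to 0.787 for Col3a1, 0.358 for Col15a1 and 0.456 for Tagln. It ranged up to 0.225 for Tnc, 0.257 for Tgfbi and 0.286 for Bgn. Without replicate 7 and 8-week replicate 1, 12 genes passed, where 6.23% of all probes did. Of the 12, 11 were higher (31.4%, against 4.19% of all probes) and 1 lower (against 2.04%), and the additional genes were Col18a1, Sparc, Lum, Dcn and Acta2. Without 8-week replicate 1 alone, none of the 35 passed, while 94 of all probes (0.423%) did. The values of the age groups did not overlap for 1 gene in the higher direction, Tnc, where 4.38% of all probes were so separated, and for 2 in the lower direction, Col4a3 and Col4a5, against 4.33%. Without replicate 7, the groups were separated for 12 genes in the higher direction (34.3%, against 9.47%) and for 2 in the lower direction, against 7.8%.

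**Figure D1:**
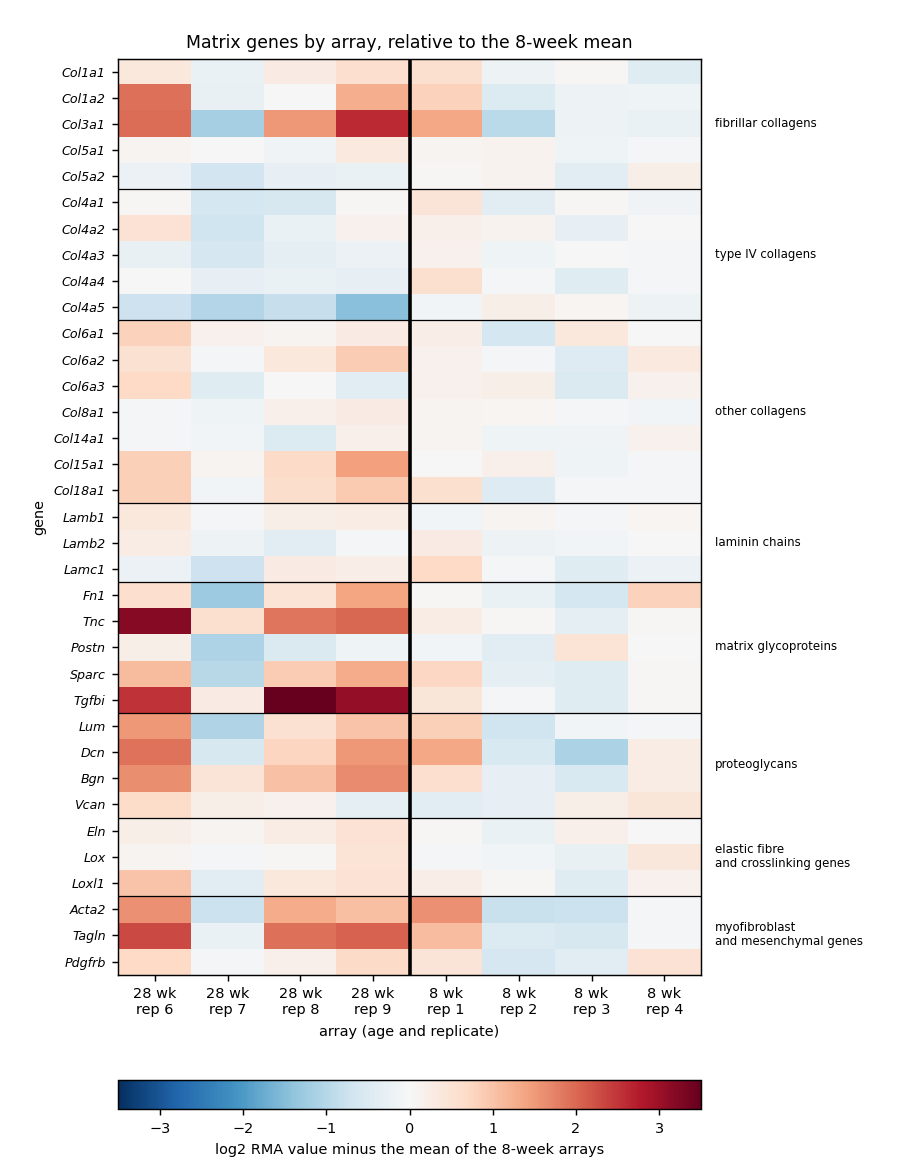
Log2 RMA value of each of the 35 genes (rows, grouped by class) in each array (columns, 28-week arrays on the left), shown as the difference from the gene's mean over the 8-week arrays. Tnc and Tgfbi are high in 28-week replicates 6, 8 and 9, replicate 7 is close to the 8-week arrays or below them, and Col4a5 is low in all 4 of the 28-week arrays.

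The type IV collagen genes all had lower means at 28 weeks, with a median log2 difference of -0.27. Col4a5, an α chain of the mature glomerular basement membrane, was 5.25, 4.94, 5.16 and 4.49 at 28 weeks in replicates 6, 7, 8 and 9, against 5.86, 6.17, 6.04 and 5.79 at 8 weeks in replicates 1, 2, 3 and 4. Every 28-week array was below every 8-week array, and replicate 7 was not apart from its group. Col4a5 was 2.01-fold lower at 28 weeks (SE of the log2 difference 0.19, adjusted p = 0.0426 in limma). Its probe is among the dimmest 50%, and its 28-week values lay below the median of every array. The adjusted p was 0.0253 without 28-week replicate 7 and 0.0731 without 8-week replicate 1. With single arrays left out it ranged up to 0.131, and the call held in 1 of the 8 such fits.

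Col4a3, the α3 chain, was 14.74, 14.40, 14.65 and 14.79 at 28 weeks, against 15.15, 14.86, 15.02 and 14.97 at 8 weeks. The age groups did not overlap, but the difference was small and did not pass the test (1.28-fold lower, adjusted p = 0.269). Its partner Col4a4, the α4 chain, was 11.68, 11.38, 11.44 and 11.39 at 28 weeks, against 12.23, 11.62, 11.23 and 11.59 at 8 weeks. These ranges overlapped (log2 difference -0.20, 95% interval -0.65 to 0.26, adjusted p = 0.741).

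Col4a1, the α1 chain of widespread basement membranes, was 7.04, 6.38, 6.42 and 7.04 at 28 weeks, against 7.44, 6.61, 7.04 and 6.87 at 8 weeks, and the groups overlapped (adjusted p = 0.660). Col4a2, the α2 chain, was 8.10, 6.89, 7.38 and 7.76 at 28 weeks, against 7.79, 7.71, 7.32 and 7.58 at 8 weeks, with the 8-week values inside the 28-week range (adjusted p = 0.940). The direction of Col4a2 was not stable, since its log2 difference was -0.07 with all arrays and 0.15 without replicate 7.

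The difference between paired genes within each array compares the neighbours directly, as a change in one value relative to the other. For Col4a5 minus Col4a6 it was 0.80, -0.28, 0.01 and -0.07 at 28 weeks, against 1.17, 1.59, 0.95 and 0.99 at 8 weeks. Every 28-week array was below every 8-week array, and the mean changed by -1.06 (exact two-sided permutation p = 0.0286 over 70 arrangements, the smallest these 8 arrays allow, and 0.0857 adjusted over the 3 pairs). Col4a6 itself differed by 0.06 on the log2 scale (adjusted p = 0.943 in limma). The change in the Col4a1 and Col4a2 pair was -0.20 (exact permutation p = 0.371), and that in the Col4a3 and Col4a4 pair was -0.16 (exact permutation p = 0.486). After adjustment none of the 3 pair changes passed 0.05.

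Podocyte markers were examined beside the type IV collagens because podocytes make the α3, α4 and α5 chains. Of the 7 listed, 5 were measured and 4 had negative differences, with 0 passing the test. Their score, the mean over the markers of the value minus the gene's 8-week mean, was -0.17, -0.32, -0.22 and -0.50 at 28 weeks, against 0.34, -0.41, 0.17 and -0.11 at 8 weeks. The log2 of their summed linear values lay between 11.28 and 11.76 at 28 weeks and between 11.60 and 12.44 at 8 weeks. Podxl was 1.39-fold lower at 28 weeks, Ptpro 1.36-fold, Synpo 1.29-fold and Wt1 1.21-fold, while Nphs1, which encodes the slit diaphragm protein nephrin, was 1.03-fold higher, and their adjusted p ranged from 0.308 to 0.957. No deposited marker value is 0, since RMA gives none. The part of podocyte abundance in the type IV collagen values was not tested.

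The laminin chains did not pass the test. Laminins are trimers of α, β and γ chains, and Lamb2 encodes the β chain of the mature glomerular basement membrane. Lamb2 was 9.01, 8.55, 8.34 and 8.71 at 28 weeks, against 9.03, 8.55, 8.64 and 8.73 at 8 weeks, with overlapping groups and a log2 difference of -0.08 (95% interval -0.48 to 0.31). Lamb1, the β1 chain, had a log2 difference of 0.20 (95% interval -0.11 to 0.51), and Lamc1, the γ1 chain, one of -0.10 (95% interval -0.74 to 0.54). Without replicate 7 the 28-week values of Lamb1 lay above all 8-week values (adjusted p = 0.369).

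Other basement membrane genes outside the 35 were read from a list of 25, of which 24 were measured and 0 passed the test in limma. At an unadjusted p under 0.05, 2 were higher and 5 lower at 28 weeks, against 8.36% and 6.63% of all probes. Tinagl1, related to the tubulointerstitial nephritis antigen, was 9.97, 8.69, 8.70 and 8.91 at 28 weeks, against 8.55, 8.28, 8.21 and 7.91 at 8 weeks, without overlap (adjusted p = 0.184). Lamb3, the β3 chain of epithelial laminin, was 1.95-fold higher (adjusted p = 0.281), on a dim probe and with overlapping groups. Its values were 5.43, 4.19, 3.70 and 3.82 at 28 weeks, against 4.15, 2.95, 3.28 and 2.90 at 8 weeks. Tinag, which encodes the tubulointerstitial nephritis antigen of tubular basement membranes, was 13.79, 14.51, 14.35 and 14.15 at 28 weeks, against 15.07, 14.75, 14.77 and 14.75 at 8 weeks. Its groups did not overlap (1.55-fold lower, adjusted p = 0.120), and it passed without replicate 7 (adjusted p = 0.0462).

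**Figure D2:**
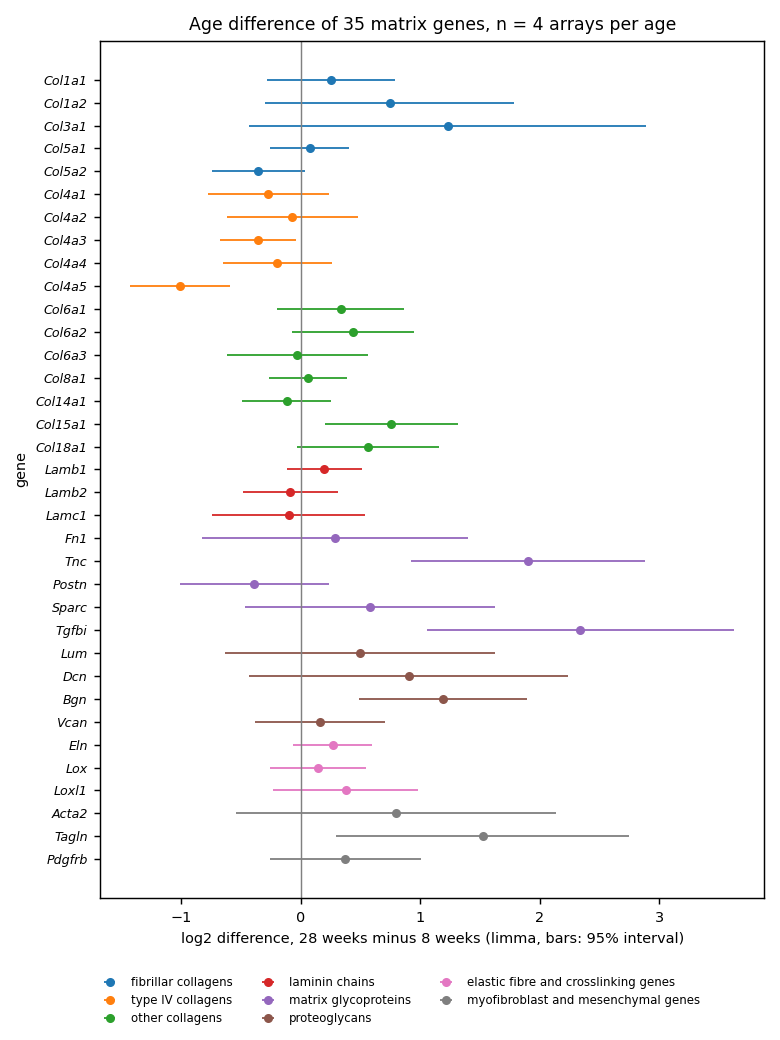
Log2 difference, 28 weeks minus 8 weeks, of each gene (points) with its 95% interval (bars) from limma on all 8 arrays, coloured by class. The intervals of Col4a5 and Col4a3 lie below 0, those of Tnc, Tgfbi, Bgn, Tagln and Col15a1 lie above 0, and most others span it.

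Among the fibrillar collagens, which bear the tensile load of the interstitium, 4 of 5 differences were positive and none passed the test with all arrays. Their median log2 difference was 0.26, and 0.42 without replicate 7. Col3a1, the only chain of type III collagen, was 8.76, 5.64, 8.33 and 9.42 at 28 weeks, against 8.15, 5.87, 6.64 and 6.57 at 8 weeks. The groups overlapped, and the lowest of all 8 values was 28-week replicate 7. Col3a1 was 2.35-fold higher at 28 weeks (SE 0.75 on the log2 scale, adjusted p = 0.507), and 4.08-fold higher without replicate 7 (SE 0.48, adjusted p = 0.0394).

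Col1a2, the α2 chain of type I collagen, was 9.06, 6.88, 7.15 and 8.40 at 28 weeks, against 7.94, 6.64, 6.95 and 6.98 at 8 weeks. The groups overlapped (1.68-fold higher, adjusted p = 0.524). Col1a1, the α1 chain of the same protein, was 6.53, 5.93, 6.44 and 6.76 at 28 weeks, against 6.73, 5.97, 6.20 and 5.74 at 8 weeks, with a log2 difference of 0.26 (95% interval -0.28 to 0.79, adjusted p = 0.704). For both genes the 28-week values without replicate 7 lay above those of 8-week replicates 2, 3 and 4, and neither passed the test in any of the fits run. Col5a1, a chain of the type V collagen that starts fibrils, had log2 difference 0.08, and its probe was dim, at 3.49 ± 0.19 at 28 weeks and 3.42 ± 0.13 at 8 weeks (SD, n = 4 each). Col5a2, another type V chain, was the exception in direction, at 4.53 ± 0.22 at 28 weeks and 4.88 ± 0.26 at 8 weeks (SD, n = 4 each, adjusted p = 0.393).

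Genes that modify and process collagen chains were read from a list of 25, of which 22 were measured. Of these, 1 passed in the lower direction and 0 in the higher one, against 0.522% and 0.446% of all probes. Their differences were split evenly, 11 positive and 11 negative. Colgalt2, which encodes a galactosyltransferase that glycosylates collagen, was 6.40, 6.70, 6.37 and 6.57 at 28 weeks, against 7.91, 7.53, 7.33 and 7.62 at 8 weeks. All 28-week arrays were lower, replicate 7 included, and Colgalt2 fell 2.13-fold (SE 0.16 on the log2 scale, adjusted p = 0.0227 in limma). With single arrays left out it passed in 3 of the 8 fits.

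The other collagens among the members differ in role. Type VI collagen forms beaded filaments around cells, type XIV decorates fibrils, type VIII is made by endothelium and smooth muscle, and types XV and XVIII are basement membrane collagens that carry glycosaminoglycans, with endostatin cut from type XVIII. Of these 7 genes, 5 had positive differences and none passed with all arrays. Col15a1 was 5.86, 5.10, 5.68 and 6.45 at 28 weeks, against 5.02, 5.20, 4.87 and 4.97 at 8 weeks. Replicate 7 alone reached down into the 8-week range, and the gene was 1.69-fold higher (adjusted p = 0.174), or 1.97-fold higher without replicate 7 (adjusted p = 0.0231).

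Col18a1 was 11.29, 10.35, 11.08 and 11.36 at 28 weeks, against 11.02, 10.01, 10.38 and 10.42 at 8 weeks. Its log2 difference was 0.56 (adjusted p = 0.363), and it passed when both arrays that lay apart were left out (adjusted p = 0.0139). The type VI chains Col6a1 and Col6a2 had log2 differences of 0.34 and 0.44, and the α3 chain Col6a3 one of -0.03, all with overlapping groups. Col8a1, the α1 chain of type VIII, differed by 0.07, and Col14a1 by -0.12, with 95% intervals that span 0.

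A list of 27 collagen genes outside the 35 held 25 measured genes, of which 0 passed in limma. At an unadjusted p under 0.05, 1 was higher and 2 lower at 28 weeks, against 8.36% and 6.63% of all probes. Col27a1, a fibrillar collagen of cartilage, was 6.30, 6.52, 5.93 and 5.81 at 28 weeks, against 8.11, 6.72, 7.61 and 7.07 at 8 weeks, without overlap (2.36-fold lower, adjusted p = 0.0805, and 0.0338 without replicate 7). Col2a1, the cartilage collagen, was 1.43-fold higher (adjusted p = 0.251), and Col24a1, another fibrillar collagen, was 1.18-fold higher (adjusted p = 0.620). Both probes were dim, with means at 28 and 8 weeks of 4.37 and 3.86 for Col2a1 and 4.17 and 3.93 for Col24a1.

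The matrix glycoproteins Tgfbi and Tnc had the largest differences of the 35 genes, while the other genes of this class differed less. Tgfbi, a secreted protein induced by TGF-β that binds collagen and integrins, was 8.84, 6.60, 9.80 and 9.41 at 28 weeks, against 6.74, 6.29, 5.90 and 6.36 at 8 weeks. In replicates 6, 8 and 9 it was above every 8-week value, and in replicate 7 it was inside the 8-week range. The difference was 5.06-fold higher (SE 0.58 on the log2 scale) and did not pass (adjusted p = 0.0901), and it was 8.15-fold higher without replicate 7 (SE 0.26, adjusted p = 0.000299).

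Tnc, tenascin C, a glycoprotein of healing and fibrotic tissue, was 8.96, 6.34, 7.65 and 7.80 at 28 weeks, against 6.05, 5.82, 5.44 and 5.84 at 8 weeks. Every 28-week value was above every 8-week value, replicate 7 included. The 3.73-fold difference (SE 0.44 on the log2 scale) did not pass with all arrays (adjusted p = 0.0776), and passed without replicate 7 (5.10-fold, adjusted p = 0.00224) and with array weights.

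Sparc, which encodes the collagen-binding glycoprotein osteonectin, was 13.45, 11.35, 13.23 and 13.63 at 28 weeks, against 13.07, 11.98, 11.91 and 12.37 at 8 weeks. Its lowest value was again replicate 7 (log2 difference 0.58, adjusted p = 0.641). Without replicate 7 the groups did not overlap and Sparc was 2.15-fold higher (adjusted p = 0.0505), and with both arrays that lay apart left out it passed (log2 difference 1.35, adjusted p = 0.00432). Fn1, fibronectin, was 7.50, 5.64, 7.38 and 8.29 at 28 weeks, against 6.95, 6.68, 6.31 and 7.72 at 8 weeks, with broad overlap (log2 difference 0.29, 95% interval -0.83 to 1.40). Without replicate 7 its log2 difference was 0.81 (adjusted p = 0.261). Postn, periostin, was the exception to the positive direction in this class. It was 6.66, 5.35, 5.94 and 6.28 at 28 weeks, against 6.36, 6.05, 6.93 and 6.43 at 8 weeks (log2 difference -0.39, adjusted p = 0.598).

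The small proteoglycans of the interstitium, which bind collagen fibrils, all had positive differences and none passed with all arrays. Bgn, biglycan, was 12.52, 11.36, 11.94 and 12.56 at 28 weeks, against 11.48, 10.61, 10.37 and 11.16 at 8 weeks. Only 28-week replicate 7 and 8-week replicate 1 overlapped, and Bgn was 2.28-fold higher (SE 0.31 on the log2 scale, adjusted p = 0.105) and 2.70-fold higher without replicate 7 (adjusted p = 0.0179). Dcn, decorin, was 12.99, 10.51, 11.84 and 12.59 at 28 weeks, against 12.44, 10.54, 9.98 and 11.35 at 8 weeks.

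In Dcn the value of 8-week replicate 1 was above 2 of the 28-week values. Dcn was 1.87-fold higher (adjusted p = 0.552), and passed with both left out (adjusted p = 0.0258). Lum, lumican, was 7.25, 4.67, 6.27 and 6.73 at 28 weeks, against 6.58, 5.05, 5.64 and 5.67 at 8 weeks (1.41-fold higher, adjusted p = 0.732). Lum was 2.02-fold higher without replicate 7 (adjusted p = 0.158), and it passed with both arrays left out (log2 difference 1.30, adjusted p = 0.0288). Vcan, versican, a large proteoglycan, was 6.49, 6.05, 6.00 and 5.50 at 28 weeks, against 5.48, 5.57, 6.06 and 6.27 at 8 weeks, and the groups overlapped (log2 difference 0.17, 95% interval -0.38 to 0.71).

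A list of 38 matrix glycoprotein and proteoglycan genes outside the 35 held 35 measured genes. None passed in limma with all arrays. At an unadjusted p under 0.05, 5 were higher and 2 lower, against 8.36% and 6.63% of all probes. Positive differences were found for 26 of the 35, against 48.4% of all probes. Efemp1, an elastic fibre-associated fibulin, was 12.21, 10.56, 12.18 and 12.35 at 28 weeks, against 10.52, 10.57, 10.29 and 10.19 at 8 weeks. Replicate 7 lay just below the highest 8-week value and the other 28-week arrays far above it (2.70-fold higher, adjusted p = 0.0897, and 0.000286 without replicate 7). Thbs2, thrombospondin 2, was 1.95-fold higher (adjusted p = 0.114, and 0.00504 without replicate 7). Omd, the small proteoglycan osteomodulin, was 2.08-fold lower (adjusted p = 0.101, and 0.0126 without replicate 7).

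**Figure D3:**
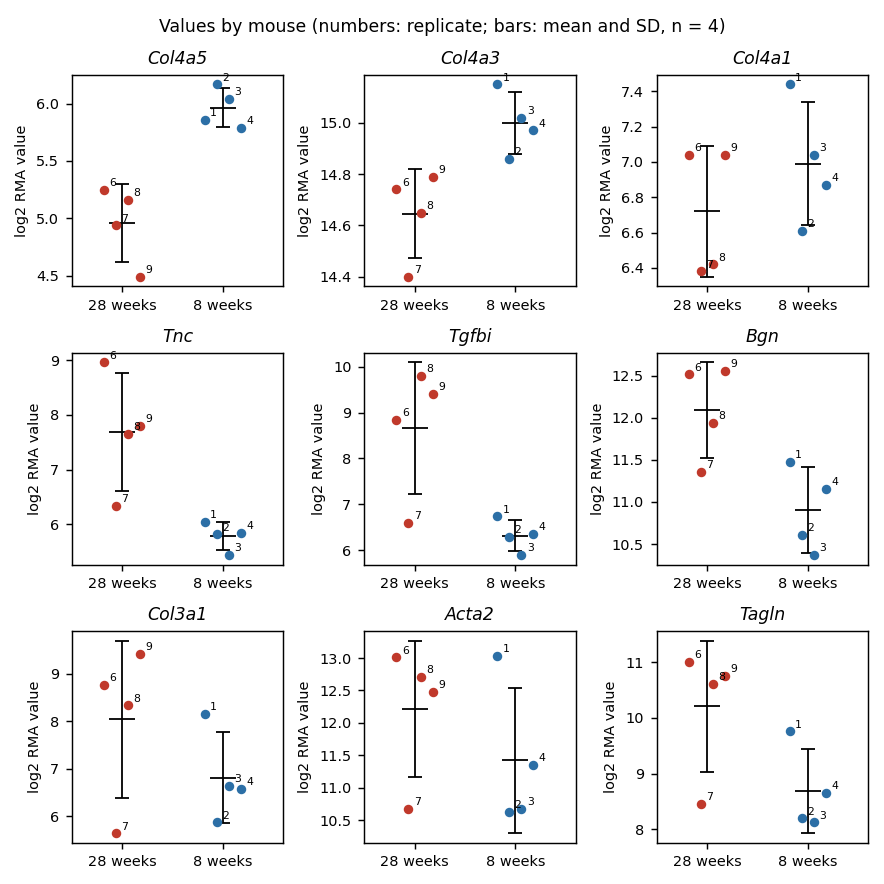
Log2 RMA value of 9 of the genes in each mouse, 28-week mice on the left and 8-week mice on the right of each panel, with the replicate number beside each point and bars for the mean and SD (n = 4 each). The vertical axes start above 0 and differ between panels. The Col4a5 and Col4a3 groups are separated with 28 weeks lower, and in Tgfbi, Col3a1, Acta2 and Tagln replicate 7 lies with the 8-week mice.

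The elastic fibre and crosslinking genes showed small differences. Elastin, encoded by Eln, is the elastic fibre protein, and Lox and Loxl1 encode lysyl oxidases, enzymes that crosslink collagen and elastin. Eln was 7.62, 7.49, 7.67 and 7.90 at 28 weeks, against 7.43, 7.18, 7.59 and 7.41 at 8 weeks, with overlap between 7.49 and 7.59 (log2 difference 0.27, adjusted p = 0.457). Lox had a log2 difference of 0.15 (95% interval -0.26 to 0.55) and Loxl1 one of 0.38 (95% interval -0.23 to 0.98). All had positive means and none passed the test in any fit run.

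The myofibroblast and mesenchymal genes had positive differences and none passed with all arrays. Tagln, which encodes the actin-binding protein transgelin of contractile cells, was 11.01, 8.46, 10.61 and 10.76 at 28 weeks, against 9.76, 8.20, 8.13 and 8.66 at 8 weeks. The value of replicate 7 lay inside the 8-week range and the others above it, so the gene was 2.87-fold higher (SE 0.55 on the log2 scale, adjusted p = 0.215), and 4.30-fold higher without replicate 7 (adjusted p = 0.00885).

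Acta2, smooth muscle α-actin, the usual marker of myofibroblasts, was 13.01, 10.68, 12.71 and 12.48 at 28 weeks, against 13.03, 10.63, 10.68 and 11.35 at 8 weeks. The highest value of all was 8-week replicate 1, and 28-week replicate 7 equalled 8-week replicate 3 at 10.68. Acta2 was 1.74-fold higher (SE 0.60 on the log2 scale, adjusted p = 0.615) and passed with both of these arrays left out (adjusted p = 0.00303). Pdgfrb, the PDGF receptor of pericytes and fibroblasts, was 9.92, 9.16, 9.41 and 9.90 at 28 weeks, against 9.66, 8.64, 8.86 and 9.73 at 8 weeks, with overlap (1.30-fold higher, adjusted p = 0.614).

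A list of 22 contractile and mesenchymal genes outside the 35 was measured in full. Of these, 1 passed in the higher direction and 0 in the lower, against 0.446% and 0.522% of all probes. Cnn2, calponin 2, an actin-binding protein, was 7.03, 5.94, 6.59 and 6.76 at 28 weeks, against 5.37, 5.58, 5.12 and 5.54 at 8 weeks. All 28-week values were above all 8-week values, and Cnn2 rose 2.26-fold (SE 0.23 on the log2 scale, adjusted p = 0.0464 in limma), though it passed in 1 of the 8 fits with a single array left out. It also missed the threshold with array medians (adjusted p = 0.0544) and with quantile normalization (adjusted p = 0.0508). Over the list 15 of 22 differences were positive, against 48.4% of all probes, with a median of 0.27. The smooth muscle genes had differences in both directions and none passed. Myh11, smooth muscle myosin heavy chain, was 6.55, 6.07, 6.13 and 5.88 at 28 weeks, against 7.10, 5.84, 6.28 and 5.94 at 8 weeks, and Cnn1, calponin 1, was 5.53, 3.60, 4.90 and 4.51 at 28 weeks, against 6.78, 4.73, 4.73 and 4.34 at 8 weeks. Both had lower means at 28 weeks, as did Lmod1 at 1.09-fold lower. Higher means were found for Des at 1.39-fold, Smtn at 1.22-fold, Tpm2 at 1.46-fold, Mylk at 1.08-fold and Myl9 at 1.68-fold (adjusted p = 0.184 for Myl9), genes chosen after their values were seen.

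Receptors for collagen and matrix were read from a list of 17, of which 16 were measured and 0 passed with all arrays. At an unadjusted p under 0.05, 6 were higher and 0 lower, against 8.36% and 6.63% of all probes. Of the 16, 15 had positive differences, against 48.4% of all probes. Cd44, a receptor for hyaluronan and collagen, was 8.82, 4.77, 9.14 and 8.62 at 28 weeks, against 5.22, 4.11, 4.49 and 4.33 at 8 weeks. Replicate 7 lay inside the 8-week range while the others were far above it (9.85-fold higher, adjusted p = 0.0916, and 20.0-fold higher without replicate 7, adjusted p = 6.2e-05). Ddr2, a receptor tyrosine kinase that binds fibrillar collagen, was 7.65, 6.53, 6.79 and 7.47 at 28 weeks, against 6.09, 6.10, 5.78 and 6.41 at 8 weeks, without overlap (2.02-fold higher, adjusted p = 0.0951, and 0.0170 without replicate 7). Itgb8, an integrin β chain, had a log2 difference of -0.18 (adjusted p = 0.816).

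**Figure D4:**
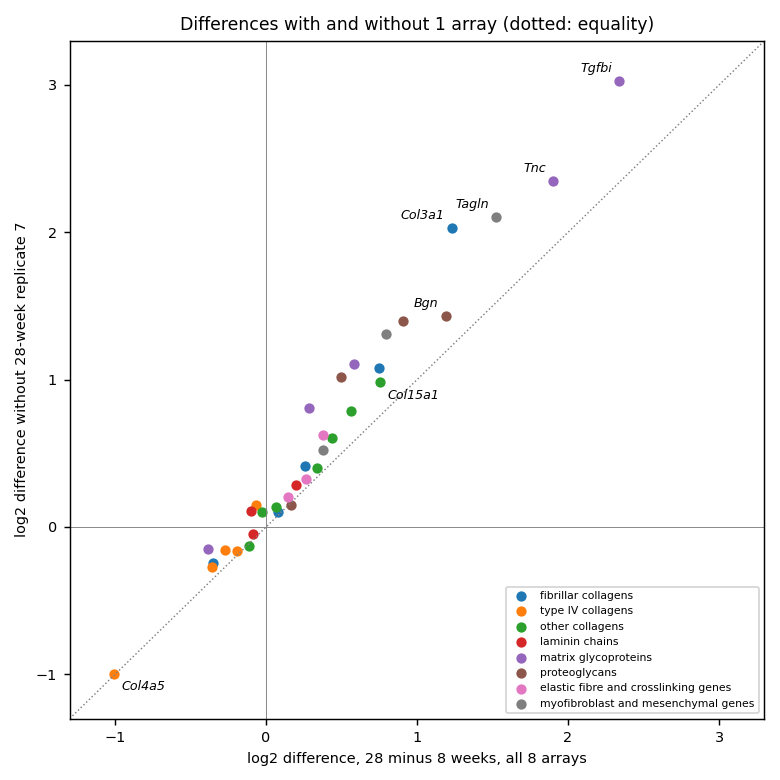
Log2 difference, 28 weeks minus 8 weeks, of each gene with all 8 arrays (horizontal axis) and without 28-week replicate 7 (vertical axis), coloured by class, with the genes that passed the test without replicate 7 labelled. Most points lie above the dotted line of equality, Tgfbi and Tnc farthest to the right and up, and Col4a5 lies on the line.

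Markers of other cell types were read beside these genes, and they are given here as values. Of 10 macrophage markers listed 9 were measured, all 9 had positive differences of at least 2-fold, against 2.3% of all probes, and 0 passed with all arrays. The macrophage score was 4.13, 0.14, 3.29 and 3.06 at 28 weeks, against 0.36, -0.09, -0.29 and 0.03 at 8 weeks, and the log2 of the summed linear values lay between 11.54 and 14.89 at 28 weeks and between 10.26 and 11.37 at 8 weeks. Without replicate 7, 8 of the 9 passed in the higher direction, where 3.63% of all probes did. The score of the matrix glycoproteins was 1.52, -0.50, 1.24 and 1.52 at 28 weeks, against 0.27, -0.20, -0.26 and 0.18 at 8 weeks. Replicate 7 was the lowest 28-week array in both. The part of macrophages in the matrix values was not tested.

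The vascular smooth muscle markers, all 5 measured, had a score of 0.36, -0.34, 0.04 and -0.08 at 28 weeks, against 0.71, -0.26, -0.16 and -0.29 at 8 weeks, and their summed level lay between 10.92 and 11.11 at 28 weeks and between 10.52 and 11.13 at 8 weeks. The highest 8-week score belonged to replicate 1, which was also the highest 8-week array for Acta2 and Tagln. The fibroblast markers, all 6 measured, had a score of 0.61, -0.01, 0.25 and 0.27 at 28 weeks, against 0.59, -0.19, -0.10 and -0.30 at 8 weeks, with 0 passing. Their summed level was low, between 7.75 and 8.82 at 28 weeks and between 7.57 and 8.28 at 8 weeks. The probes of Mfap5 (means 3.29 at 28 weeks and 2.94 at 8 weeks) and Scara5 (3.67 and 3.78) were dim. The urothelium markers, 5 of 5 measured and all with positive differences, scored 1.65, 0.95, 0.99 and -0.50 at 28 weeks, against 0.83, -0.30, -0.32 and -0.21 at 8 weeks. Upk1b, a uroplakin of the bladder and pelvis lining, was 7.15, 6.03, 5.86 and 3.82 at 28 weeks, against 6.01, 4.36, 3.68 and 4.39 at 8 weeks, so the arrays of each age differed widely and the groups overlapped. How much of the matrix values comes from vessel wall or pelvis tissue in the sample was not tested.

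Tubule marker lists had scores in both directions. The proximal tubule score was -0.67, -0.32, -0.72 and -0.81 at 28 weeks, against 0.02, -0.01, -0.03 and 0.02 at 8 weeks. Of its 5 markers, 1 passed in the lower direction, where 0.522% of all probes did. The injured tubule score was 1.83, 0.14, 2.60 and 2.60 at 28 weeks, against 0.17, 0.11, -0.27 and 0.00 at 8 weeks. Of its 6 markers, 1 passed in the higher direction, where 0.446% of all probes did. In both of these lists replicate 7 had the 28-week value nearest to the 8-week arrays. The distal nephron and collecting duct score was -0.67, 0.19, -0.66 and -0.56 at 28 weeks, against 0.41, -0.03, -0.06 and -0.32 at 8 weeks, with 0 of 5 markers passing. Without replicate 7, 2 of these passed in the lower direction, where 1.95% of all probes did: Calb1 (10.6-fold lower) and Slc12a3 (1.85-fold lower), named after their values were seen. The list was split, since with all arrays 3 differences were positive and 2 negative. Slc12a1 was 1.98-fold higher without overlap (adjusted p = 0.0916 in limma), and Umod and Aqp2 also had positive differences. The endothelial markers, 7 of 8 measured, scored 0.62, -0.05, -0.08 and 0.18 at 28 weeks, against 0.01, 0.02, -0.06 and 0.04 at 8 weeks. None passed with all arrays, and the differences were split, 4 positive and 3 negative. Cdh5 passed without replicate 7 (1.79-fold higher, adjusted p = 0.0411). Kdr went the other way with all arrays, without overlap (1.32-fold lower, adjusted p = 0.184). Both were named after their values were seen.

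Adipocyte, adrenal cortex and skeletal muscle markers had summed log2 levels of at most 7.60 at either age, with 0 passing.

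**Figure D5:**
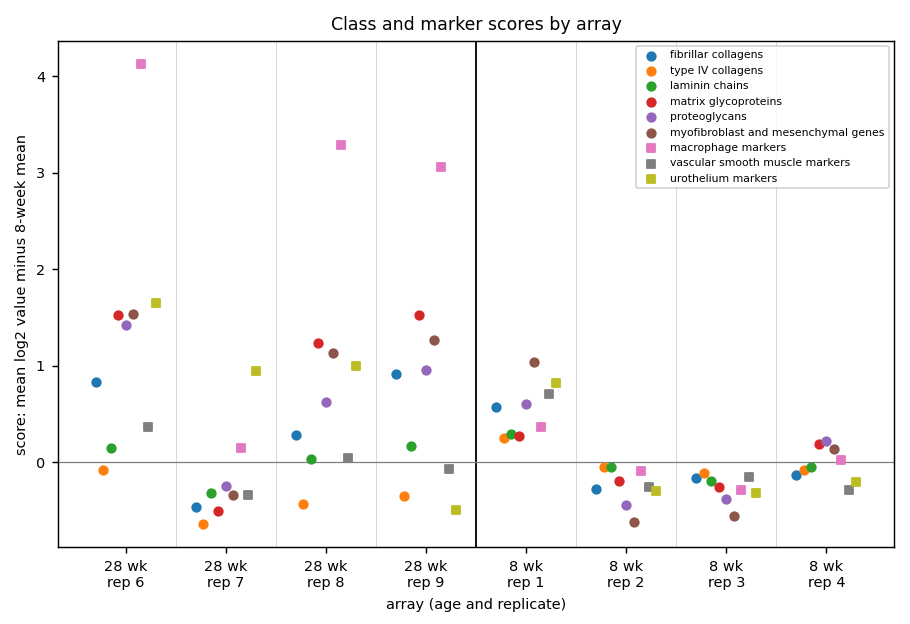
Score of 6 gene classes (circles) and 3 marker lists (squares) in each array, as the mean over genes of the log2 value minus the gene's 8-week mean, with 28-week arrays left of the black line. The macrophage score reaches 4.13 in 28-week replicate 6 and is 0.14 in replicate 7. The type IV collagen score is below 0 in all 4 of the 28-week arrays, and also in 8-week replicates 2, 3 and 4 (-0.05, -0.11 and -0.08). Its value in 28-week replicate 6 (-0.08) lies inside the 8-week range.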

How the data were processed

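Kidney total RNA of 8 NZBWF1 mice was labelled as biotinylated cRNA after Trizol extraction, per the labels' protocols, and measured on 1-colour Clariom S Mouse arrays. The authors deposited log2 values, made with RMA per the submitters' processing notes, which corrects background, normalizes arrays and summarises probes. Its version and its settings were not given. No source states the log base; base 2 is usual for RMA, and every fold rests on it. RMA gives no detection call and compresses folds of dim probes, so levels of different probes are not ranked. The differences within collagen pairs are read only as changes between the ages. The probes of Col4a5 and Col4a6 are both dim, which may understate the share of each gene in them.

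Groups came from the labels, and the design text gives 4 mice per age. The ages have different replicate numbers, which pair no samples. No batch or scan date was in the sources used here. No arrays held identical values. All 22206 probes were fitted in limma 3.58.1 under R 4.3.3 (lmFit, then eBayes), p-values were adjusted over all of them by the Benjamini-Hochberg method, and the threshold was 0.05. An exact permutation test, two-sided, was used for the 3 collagen pairs. The code was tested on simulated data.

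Of the probes, 19572 had 1 symbol in the platform annotation, 0 had several and 2634 had none. Promoter windows came from RefSeq (GRCm38.p6). The genes, the further lists, the naming rule and the alternatives were chosen with earlier results of these data known. The rule named all genes of the group and, from each further list, every gene past the threshold, or otherwise 2 with the smallest p in the commoner direction and 1 in the other. Alternatives were array medians, quantile normalization, centring on ribosomal protein genes, leaving out the dimmest 50% of probes, the brightest probe per gene, array weights, robust moderation with a trend, each array left out in turn, and both arrays that lay apart left out. Plots were drawn in Python 3.11.15 with matplotlib 3.10.9.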

Additional observations from a re-analysis of the deposited data

Results flagged for a closer look

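Each of 58 genes and scores was checked in both age groups for a single array far from the other 3 of its group. This gave 116 groups and 9 such values, where chance alone gives about 1 in 20, and 6.03% of all probes in the 28-week group and 6.06% in the 8-week group were past the same limit. Of the 9, 4 belong to 28-week replicate 7 and 3 to 8-week replicate 1.

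In the 28-week group, replicate 7 was far below the others for Tagln at 8.46, where the others lay between 10.61 and 11.01. It was also far below for Efemp1 at 10.56, against 12.18 to 12.35, and for Cd44 at 4.77, against 8.62 to 9.14. The score of the matrix glycoproteins was -0.504 in the same array, against 1.24 to 1.52 in the others.

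In the 8-week group, Col6a3 was lowest in replicate 3 at 5.79, while the others lay between 6.44 and 6.49. Replicate 1 was highest for Tinag at 15.07, against 14.75 to 14.77, and lowest for Itgb8 at 13.6, against 14.41 to 14.56. The score of the fibrillar collagens was 0.5715 in replicate 1, against -0.27 to -0.13 in the others. Omd was highest in replicate 2 at 6.27, against 5.45 to 5.57.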

How the results depend on the processing

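Of the 35 genes, 18 kept the sign of their difference in all 16 alternatives and 8 in the 15 in which they could be tested, 9 did not, and 12 passed the threshold somewhere. The cause of these changes was not tested, except that leaving out the dimmest probes removes genes, Col4a5 among them, and leaves 25. With all arrays 215 probes and 1 of the 35 genes passed. The counts were 399 and 0 without the dimmest 50% of probes, 399 probes with trend and robust moderation, 873 and 4 with array weights (Col4a5, Tnc, Tgfbi and Bgn), and 1384 and 12 with both arrays that lay apart left out. With single arrays left out they ranged from 25 to 1237 probes and from 0 to 7 genes, and both maxima came from leaving out 28-week replicate 7. In the other 7 such fits none of the 35 genes passed. The share of higher probes among those called was 46.0% with all arrays, 60.1% with array weights, 65.1% without 28-week replicate 7, 67.2% without both, and 16.7% without 8-week replicate 3. No setting moved the median of all probes by over 0.1.

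The further lists held 22 processing genes, 25 other collagens, 24 basement membrane genes, 35 glycoproteins and proteoglycans, 22 contractile genes and 16 receptors. Array weights gave 1 call among the other collagens, 3 among the other glycoproteins and proteoglycans, 4 among the contractile genes and 1 among the receptors. In that fit 873 of 22206 probes passed. Leaving out both arrays gave 3 calls among processing genes, 3 among other collagens, 1 among basement membrane genes, 4 among glycoproteins and proteoglycans, 6 among contractile genes and 4 among receptors. Of all probes 6.23% passed in that fit. Leaving out single arrays gave 0 to 2 calls among processing genes, 0 to 2 among other collagens, 0 to 1 among basement membrane genes, 0 to 4 among glycoproteins and proteoglycans, 0 to 4 among contractile genes and 0 to 3 among receptors. Over those fits 25 to 1237 of the 22206 probes passed. The contractile list, whose call was Cnn2, had 0 calls with array medians, quantile normalization or without the dimmest probes.

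The median log2 difference of the fibrillar collagens was 0.745 without the dimmest probes, and that of the other collagens -0.0275. Without both arrays it was -0.0067 for type IV collagens, 0.25 for laminin chains, 1.46 for proteoglycans and 1.85 for myofibroblast genes. For laminin chains it was 0.12 with array weights and -0.12 to 0.13 with single arrays left out. Single genes changed sign as follows. With single arrays left out, Col5a1 ranged from -0.0083 to 0.145, Col4a2 from -0.26 to 0.15, Col6a3 from -0.27 to 0.10, Col8a1 from -0.0125 to 0.13, Col14a1 from -0.21 to 0.0075, Lamb2 from -0.20 to 0.019, Lamc1 from -0.24 to 0.13 and Fn1 from -0.075 to 0.81. Without both arrays the difference was 0.21 for Col4a2, 0.023 for Col4a4, 0.15 for Col6a3, 0.047 for Lamb2 and 0.34 for Lamc1, which was 0.12 with array weights.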

Other observations

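Some genes of the further lists that the naming rule did not name, chosen after their values were seen, had a pattern over the arrays like that of Tagln and Tgfbi. Vim, the intermediate filament gene vimentin, was 11.39, 8.86, 11.74 and 11.09 at 28 weeks, against 9.06, 8.44, 8.68 and 8.75 at 8 weeks (adjusted p = 0.0976 in limma). Tpm1, an actin-binding tropomyosin, was 12.64, 11.07, 12.94 and 12.88 at 28 weeks, against 11.44, 10.94, 10.68 and 10.86 at 8 weeks (adjusted p = 0.112). Mgp, matrix Gla protein, an inhibitor of calcification, was 11.31, 8.71, 11.36 and 11.39 at 28 weeks, against 9.45, 8.30, 8.66 and 9.21 at 8 weeks (adjusted p = 0.155). In all 3 genes 28-week replicates 6, 8 and 9 were above every 8-week array and replicate 7 was inside the 8-week range.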
